A study of Homo sapiens with 4 samples.

Results

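The sites described here are promoter sites of full-length SOX2: peak intervals listed for full-length SOX2 and not for its DNA-binding domain (SOX2-DBD), whose centre lay within 1 kb of the start of a protein-coding transcript of a protein-coding gene. There were 695 of them among 58827 distinct intervals of the SOX2 and SOX2-DBD lists together, and among 43607 intervals listed for full-length SOX2 only (1.59%, Wilson 95% confidence interval 1.48 to 1.72). They were selected on the measurement itself, by presence in the first list and absence from the second, so their absence for SOX2-DBD is a definition and not a result. None of the 695 overlapped a SOX2-DBD interval by 1 bp.

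Binding was mapped by CUT&RUN: a nuclease is tethered through an antibody to a protein on chromatin, and the DNA it cuts loose is sequenced. Both proteins carried the V5 tag and were recovered with the same V5 antibody. The cells were BJ, an established line of human foreskin fibroblasts, in which SOX2 or SOX2-DBD had been expressed ectopically for 48 h. Each group had 2 samples, and the peak list of replicate 1 was analysed for each, with a down-sampled SOX2 list of the same sample beside it. Every site is therefore seen through 1 list per protein, with no spread over replicates and no test over samples. Sequencing depth is unknown, and neither the level of either protein in the cells nor a sample without it was analysed here. Fewer sites called for SOX2-DBD and a shallower or weaker library cannot be told apart.

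SOX2 binds DNA through an HMG box, a domain that inserts into the minor groove and bends the helix, and is known as a pioneer factor because it can engage its motif on nucleosomes. The DNA-binding domain keeps the HMG box and lacks the activation domain of the full protein. A promoter is the DNA around a transcript's start. Many constitutively active genes start in CpG islands, stretches rich in CG dinucleotides that are usually open and unmethylated, whereas tissue-restricted genes more often start in CpG-poor DNA. Genes can also have alternative starts, many of them inside the gene and far from the start of the canonical transcript that annotations take as representative.

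The windows below are examples, most of them picked for a motif, and do not show the typical site. All are hg19 reference sequence of the plus strand, 80 bases each. The first set holds a longer form of the SOX motif, AACAATAG or AACAATGG on either strand, in capitals. Only 3.17% of the 695 sites had it in their central 200 bp. GJA9 encodes a gap junction connexin, GLYATL2 a glycine acyltransferase, PTPRC the leukocyte phosphatase CD45 and EXOC6 an exocyst subunit.
GJA9, chr1:39347281-39347360: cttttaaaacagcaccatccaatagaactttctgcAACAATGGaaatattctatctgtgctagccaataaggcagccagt
GLYATL2, chr11:58612225-58612304: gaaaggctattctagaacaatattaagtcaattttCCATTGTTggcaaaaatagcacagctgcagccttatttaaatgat
PTPRC, chr1:198607213-198607292: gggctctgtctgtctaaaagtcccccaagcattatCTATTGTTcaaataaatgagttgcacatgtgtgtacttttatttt
EXOC6, chr10:94757804-94757883: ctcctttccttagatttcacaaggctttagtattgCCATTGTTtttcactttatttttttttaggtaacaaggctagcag
In the next set the capitals mark TGACTCA or TGAGTCA, the site of AP-1 (FOS and JUN family dimers), present in 7.91% of the 695 sites. KIFAP3 encodes a subunit that ties kinesin-2 to its cargo, CDH2 encodes N-cadherin and ABCA8 a lipid transporter of the ABCA family.
KIFAP3, chr1:170038267-170038346: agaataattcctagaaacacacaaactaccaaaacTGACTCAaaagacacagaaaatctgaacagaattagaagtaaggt
CDH2, chr18:25626022-25626101: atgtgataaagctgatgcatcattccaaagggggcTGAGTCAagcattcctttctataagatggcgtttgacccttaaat
ABCA8, chr17:66950630-66950709: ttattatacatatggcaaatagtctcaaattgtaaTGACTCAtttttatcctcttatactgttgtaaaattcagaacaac
A further set comes from sites within 1 kb of CpG-rich canonical starts, with the SOX core (ACAAAG or ACAATG on either strand) in capitals. These were chosen after the values were seen. Their centres lay 639, 650 and 990 bp from those starts, with 41.5%, 41.0% and 40.5% GC in the central 200 bp. MED23 encodes a Mediator subunit, and ENPP3, a nucleotide pyrophosphatase gene, has a start beside it. DCUN1D3 encodes a regulator of cullin neddylation, and starts of ERI2 and LYRM1 also lay within 1 kb of that site.
MED23 and ENPP3, chr6:131950046-131950125: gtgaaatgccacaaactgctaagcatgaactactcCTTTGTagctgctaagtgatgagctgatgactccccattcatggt
FAM210B, chr20:54933392-54933471: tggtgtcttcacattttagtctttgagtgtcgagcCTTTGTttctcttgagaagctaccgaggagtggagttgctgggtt
DCUN1D3, chr16:20910730-20910809: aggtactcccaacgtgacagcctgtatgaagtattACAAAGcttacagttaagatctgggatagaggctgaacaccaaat
The last set lies at the centre of strong sites with no SOX core in the 80 bases shown, and is printed for its base composition, rich in A and T.
KRTAP4-12, chr17:39281009-39281088: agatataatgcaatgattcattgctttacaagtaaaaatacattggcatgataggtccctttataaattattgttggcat
ABCA10, chr17:67224492-67224571: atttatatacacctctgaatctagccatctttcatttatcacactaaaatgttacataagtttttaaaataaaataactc

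Of the 695 sites, 158 (22.7%, 19.8 to 26.0) lay within 1 kb of a canonical start and 537 lay at alternative starts only. Canonical starts make up 24.8% of all protein-coding starts (19475 of 78569), so by number of starts this split is near that of the annotation. By length of DNA it is not. Canonical starts took up 36.8 Mb and alternative starts only 35.3 Mb, with 4.3 and 15.2 full-length-only sites per Mb. Introns of protein-coding transcripts held 540 of the centres (77.7%), untranslated exons 42, coding exons 35, and 78 lay outside protein-coding transcripts. Among promoter sites shared by both proteins, 139 of 373 (37.3%, 32.5 to 42.3) had a canonical start within 1 kb. The share was 14.5 percentage points lower at the full-length-only sites (difference -14.5, Newcombe 95% confidence interval -20.4 to -8.77). These intervals, here and below, cover counting error over genomic intervals and not variation between samples.

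The starts of 654 of 19794 protein-coding genes (3.3%) had at least 1 full-length-only site within 1 kb. At the canonical start itself the number was 165 (0.834%), and 358 genes (1.81%) had a shared promoter site. Both kinds of site occurred at 52 genes, which is 7.95% of the genes with a full-length-only site and 14.5% of those with a shared site. Genes with a full-length-only site were long and had many starts, with a median length of 94.6 kb and 6 starts, against 27.0 kb and 3 starts for all protein-coding genes. Genes with a shared promoter site were alike, with 78.5 kb and 6 starts. Genes with a full-length-only site at their canonical start were not, with medians of 33.1 kb and 2 starts. Of the 1811 genes with 9 or more starts, 201 (11.1%) had a full-length-only site at any start, against 48 of 4932 genes with 1 start (0.973%). Counted at the canonical start alone, the same 2 groups of genes had shares of 0.718% (0.420 to 1.22) and 0.953% (0.717 to 1.26), whose intervals overlap.

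Counted per length of DNA, full-length-only sites were scarcest at CpG-rich canonical starts. A start was classed as CpG-rich when a 500-bp window near it had more than 55% GC and an observed over expected CpG ratio above 0.75, and as CpG-poor when no window exceeded 0.48. There were 35 full-length-only sites in the 20.8 Mb around CpG-rich canonical starts, 1.68 per Mb (exact Poisson 95% interval 1.17 to 2.34). CpG-poor canonical starts held 102 in 9.09 Mb, 11.2 per Mb (9.15 to 13.6). Alternative starts in CpG-poor DNA held 18.4 per Mb (16.7 to 20.2), more than the 15.4 per Mb (15.3 to 15.5) of DNA farther than 1 kb from any protein-coding start.

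At canonical starts shared sites spanned a narrower range, from 2.70 per Mb (2.04 to 3.5) at CpG-rich canonical starts to 5.50 (4.08 to 7.26) at CpG-poor ones. At alternative starts the range was not narrower: shared sites went from 1.48 (0.543 to 3.22) in CpG-rich to 8.16 per Mb (7.05 to 9.39) in CpG-poor DNA, and full-length-only sites from 4.19 (2.44 to 6.71) to 18.4. Of the 91 SOX2 intervals at CpG-rich canonical starts, 35 were listed for full-length SOX2 only (38.5%), against 102 of 152 at CpG-poor ones (67.1%) and 75.5% farther than 1 kb from a start. At alternative starts the share was 73.9% in CpG-rich, 70.8% in intermediate and 69.3% in CpG-poor DNA. The first of these rests on 17 full-length-only and 6 shared intervals, too few to show whether the share followed CpG content there. CpG-poor starts made up 64.6% of the canonical starts at full-length-only sites (102 of 158) and 50 of 139 at shared sites, a difference of 28.6 points (17.3 to 38.9). Over all canonical starts the share was 23.6%.

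**Figure D1:**
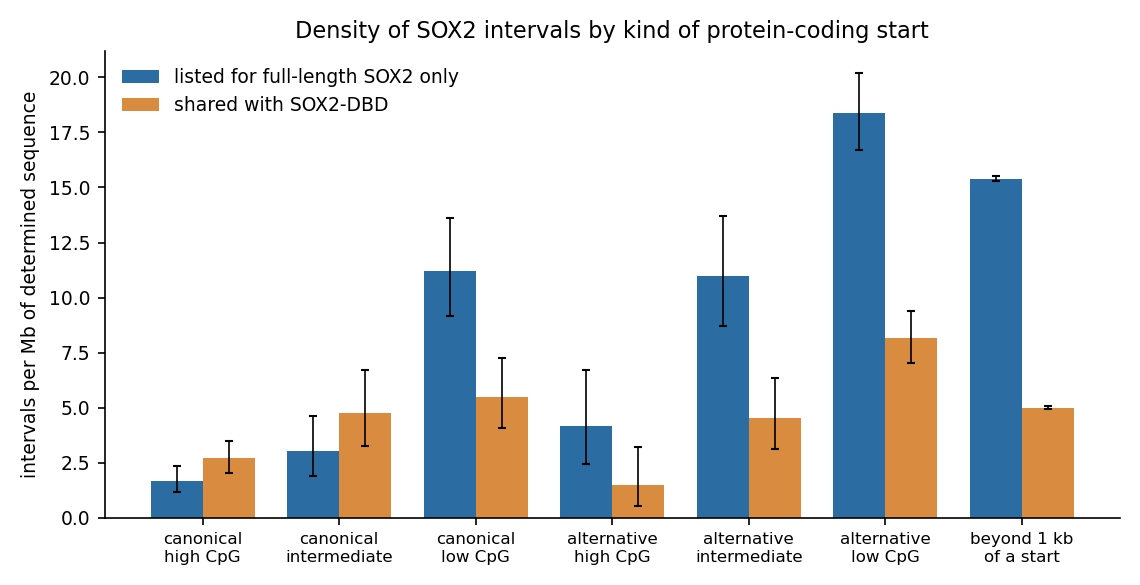
Intervals per Mb of determined hg19 sequence, by kind of start, for sites listed for full-length SOX2 only (blue) and sites shared with SOX2-DBD (orange); bars are densities and whiskers exact Poisson 95% intervals. At CpG-rich canonical starts the full-length-only density is 1.68 per Mb and below the shared density, and at CpG-poor alternative starts it is 18.4 per Mb.

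Inside the 1-kb window the sites were fewest just downstream of the start. Centres lay upstream of the nearest start at 374 of 695 sites (53.8%, 50.1 to 57.5), and 191 intervals (27.5%) covered the start. In steps of 200 bp around canonical starts, 5 centres fell in the first 200 bp of the transcript, against 18 in the 200 bp before it and 23 between 800 and 1000 bp after it. At alternative starts the same steps held 34, 59 and 68. CpG-rich canonical starts were the most one-sided, with 30 of 35 centres upstream (85.7%) and 1 in the first 500 bp of the transcript. At CpG-poor canonical starts 54 of 102 were upstream (52.9%). Shared sites at CpG-rich canonical starts were also mostly upstream (49 of 56, 87.5%), so this position is not particular to full-length-only sites there. At CpG-poor canonical starts 33 of 50 shared sites were upstream (66%), and among all shared promoter sites 61.7% (56.6 to 66.5). The median distance to the nearest start was 345 bp at shared and 519 bp at full-length-only sites.

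**Figure D2:**
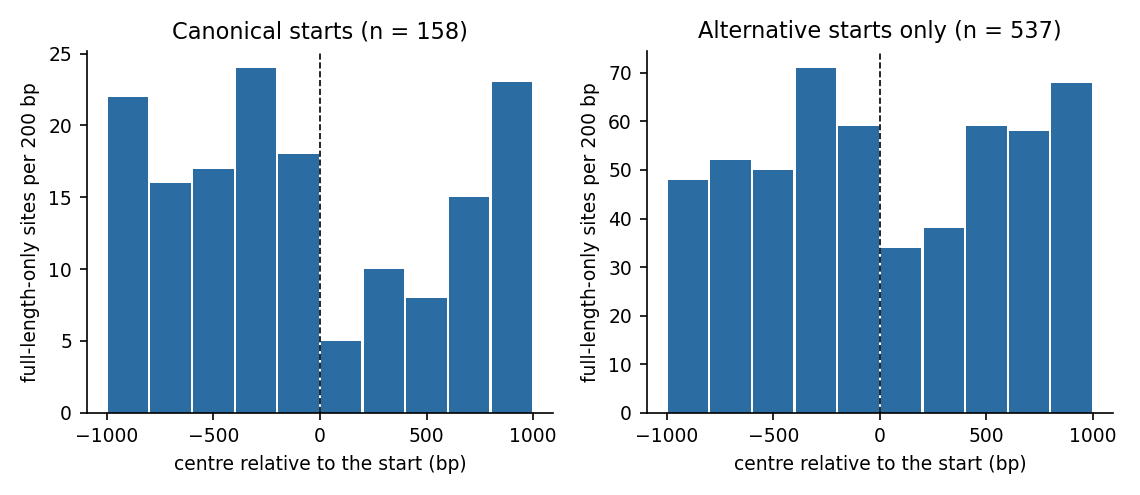
Number of full-length-only sites per 200 bp by the position of their centre relative to the start, negative values upstream, for canonical starts (left, 158 sites) and alternative starts only (right, 537 sites). The lowest bar in each plot is the first 200 bp downstream, with 5 and 34 sites.

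The 35 sites at CpG-rich canonical starts had a median width of 432 bp and a median total signal of 1646, against 589.5 bp and 2491.5 at the 102 CpG-poor canonical starts. Their central 200 bp had a median GC content of 46.0%, against 32.5%. Shared sites at CpG-rich canonical starts were alike in this, with a median GC content of 50.5%. CCAAT, the box bound by NF-Y, was present on either strand in 17 of the 35 windows (48.6%, 33.0 to 64.4), in 30.4% (22.3 to 39.9) of those at CpG-poor canonical starts and in 67.9% (54.8 to 78.6) of shared sites at CpG-rich ones. The SOX core was in 15 of the 35 (42.9%, 28.0 to 59.1), against 47.1% (37.7 to 56.7) and 37.5% (26.0 to 50.6). The intervals of the first 2 classes overlap for both motifs. PSMD1, a proteasome subunit gene, was among the 35, with a 590-bp interval centred 518 bp upstream of its start and a total signal of 1407.

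Total signal, the sum over an interval, and maximum signal are the deposited values of the SOX2 list, in units whose normalization is not given. Over the 695 sites total signal had a median of 2170 (interquartile range 1599.5 to 3104), maximum signal a median of 10 and width a median of 546 bp. Full-length-only sites elsewhere had medians of 2279, 10 and 559 bp. Sites at promoters made up 1.24% to 2.29% of full-length-only intervals in each of 10 equal bins of total signal. Shared promoter sites had a median width of 357 bp and were as short as 5 bp. The region of maximum signal lay inside the interval at all 695 full-length-only sites and at 292 of 373 shared ones, so width and centre may not mean the same in both, which also bears on the motif windows of shared sites. Each shared interval carries the same signal in both lists, so which protein's library it describes is not known, and its signal is not compared here.

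A single site stood far above all others. It lay at chr6:27100151-27100751, beside the divergent starts of the histone genes H2AC11 and H2BC11, with its centre in coding sequence, a total signal of 520731 and a maximum of 2135. No other full-length-only interval, at promoters or elsewhere, had a total above 21258. The site had no SOX core, longer SOX motif or AP-1 motif in its central 200 bp, a GC content of 56.0%, and no overlapping interval in the down-sampled list. What accounts for it was not tested. Without it the median total signal of the sites was 2169.5 and the highest 10196. The full-length-only share of SOX2 intervals at CpG-rich canonical starts was 37.8% without it.

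After it, the highest totals were at long intervals in CpG-poor DNA. KIFAP3 had 10196 over 2269 bp at an alternative start inside the gene. CLCA4, which encodes a chloride channel regulator of epithelia, had 8636 at its canonical start, centred 328 bp downstream. KRTAP4-12, for a keratin-associated protein of hair, had 7789 with the centre 614 bp upstream of its canonical start. CDH2 followed with 7509 at an alternative start. ARHGEF7 (a guanine nucleotide exchange factor for RAC and CDC42), ABCA10, CAB39L, NRCAM (a neuronal cell adhesion molecule) and OR6X1 (an olfactory receptor) had totals from 7480 down to 6731. Of these 9 sites, 4 were at canonical starts (CLCA4, KRTAP4-12, ABCA10 and OR6X1), and none was at a CpG-rich start. KIFAP3, CLCA4, KRTAP4-12, ARHGEF7, CAB39L and OR6X1 overlapped an interval of the down-sampled list, and CDH2, ABCA10 and NRCAM did not. Only CLCA4 and CDH2 among the 9 had a SOX core in the central 200 bp.

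**Figure D3:**
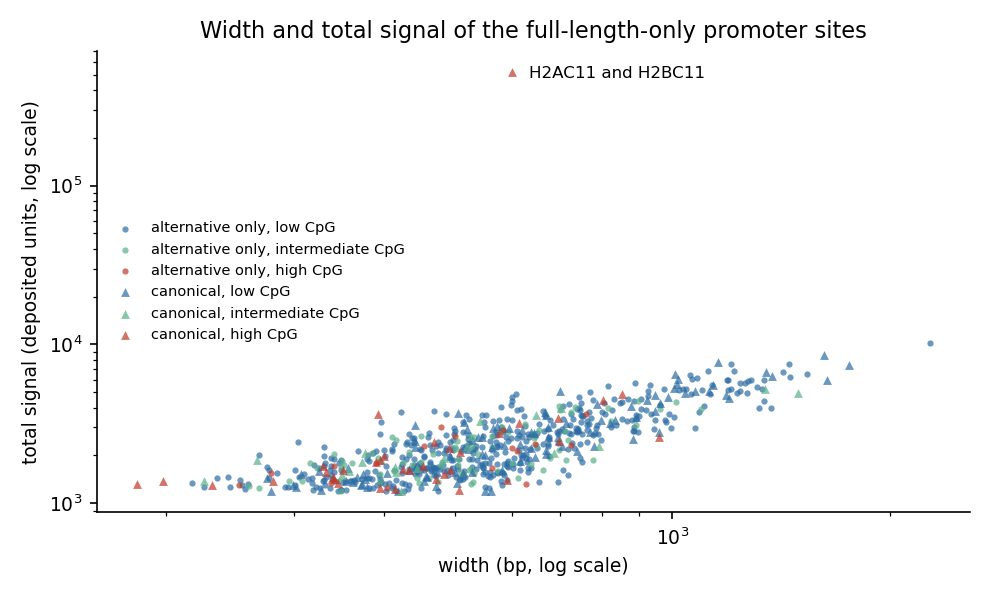
Width (bp, log scale) against total signal (deposited units, log scale) of the 695 full-length-only promoter sites; triangles are sites at canonical starts, circles sites at alternative starts only, and colours give the CpG class of the start. The site at H2AC11 and H2BC11 lies at 520731 and every other site at or below 10196.

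The sites were AT-rich for promoter DNA. The central 200 bp had a median GC content of 33.5%, the same as full-length-only sites elsewhere (33.5%) and lower than shared promoter sites (37.0%). Windows of equal size at all protein-coding starts, placed at the same offsets as the sites, had a median of 53.5%, and those at CpG-poor starts 46.5%. A CpG-poor start in general is therefore less AT-rich than these sites were.

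The SOX core was present on either strand in 326 of 695 sites (46.9%, 43.2 to 50.6). Windows at all protein-coding starts had it in 17.2% (16.9 to 17.5), and in 28.7% when weighted to the GC content of the sites. The share was 46.9% at full-length-only sites elsewhere and 48.8% (43.8 to 53.9) at shared promoter sites, with differences of -0.0384 points (-3.75 to 3.71) and -1.89 points (-8.14 to 4.37). It was 47.5% at canonical and 46.7% at alternative starts. More than 53% of the sites thus had no core within 100 bp of the centre. The longer AACAATAG or AACAATGG, of which the latter contains the core, was present in 22 sites (3.17%, 2.10 to 4.75), against 0.927% of start windows and 3.49% of full-length-only sites elsewhere.

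At equal GC content the core remained more frequent at the sites than at starts in general. Between 30% and 35% GC it was in 122 of 268 sites (45.5%, 39.7 to 51.5) and in 30.1% of start windows. Between 40% and 45% GC the shares were 37 of 67 (55.2%, 43.4 to 66.5) and 26.5%. The match was also more frequent towards the centre, in a profile that was not matched for GC content. Between 100 and 50 bp before the centre 15.5% of sites had a match starting in the 50-bp bin. The share was still 13.5% at 250 to 200 bp before it. It was 7.05% at 500 to 450 bp before the centre and 6.47% at 450 to 500 bp after it, whereas windows at starts stayed between 4.57% and 5.39%. Shared promoter sites had a like profile, with 16.9% in the 50 bp after the centre and 6.97% at 450 to 500 bp after it.

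**Figure D4:**
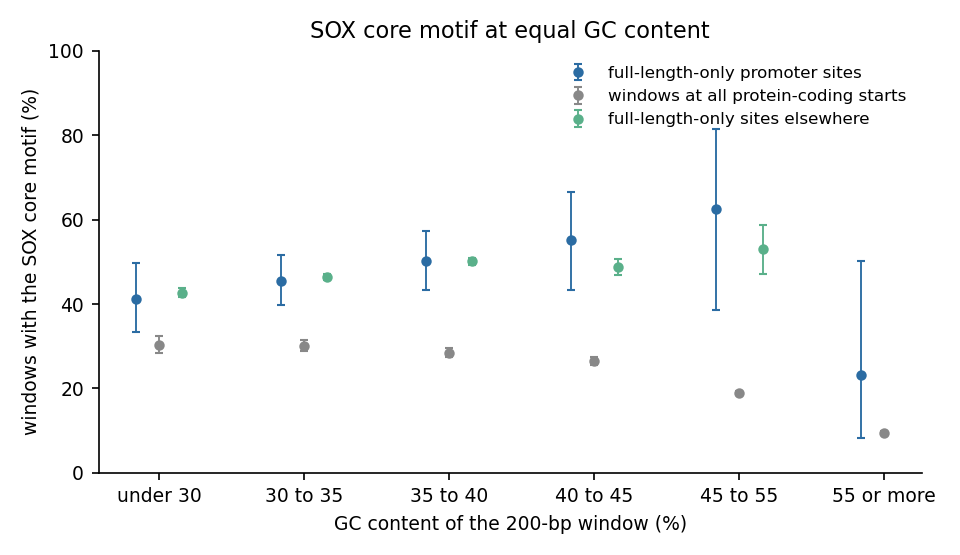
Share of 200-bp windows with the SOX core motif on either strand (%), by the GC content of the window (%), for full-length-only promoter sites (blue), windows at all protein-coding starts (grey) and full-length-only sites elsewhere (green); whiskers are Wilson 95% intervals and groups under 10 windows are not drawn. From 30% to 35% GC the promoter sites are at 45.5% and the start windows at 30.1%.

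**Figure D5:**
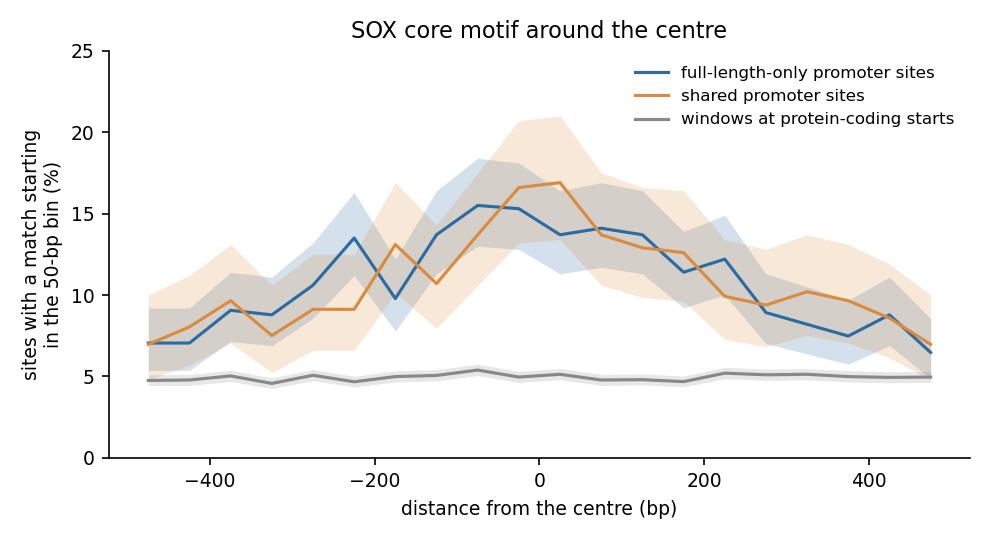
Share of sites with a SOX core match starting in each 50-bp bin (%), by distance from the centre (bp), for full-length-only promoter sites (blue), shared promoter sites (orange) and windows at protein-coding starts (grey); bands are Wilson 95% intervals. The blue line reaches 15.5% near the centre and the grey line stays between 4.57% and 5.39%.

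Of the 14 motifs counted, the AP-1 site was among those that separated full-length-only from shared promoter sites. It was present in 55 of 695 (7.91%, 6.13 to 10.2) against 56 of 373 shared sites (15.0%, 11.7 to 19.0), a difference of -7.10 points (-11.5 to -3.13). Weighted to the GC content of the full-length-only sites, shared sites had 15.9%. The full-length-only sites still had the AP-1 site more often than windows at starts (2.53%) and in a share 1.37 points (-0.429 to 3.63) from that of full-length-only sites elsewhere (6.54%). CCAAT was in 28.9% of them and in 40.2% of shared sites (difference -11.3 points, -17.3 to -5.32), and in 21.0% of start windows. GGGCGG, the GC box of SP1, was in 13 sites (1.87%), 12 of them at canonical starts. It was in 23.7% of start windows, 6.82% of those at CpG-poor starts and 8.85% of shared sites. The motif holds only G and C, and its shares, like those of CCAAT, ATGCAAAT and GGAATG, were not weighted to GC content. TATAAA was in 32.2%, against 9.06% of start windows, but 29.6% of start windows weighted to the same GC content. ATGCAAAT, the octamer of POU factors, was in 10 sites (1.44%, 0.783 to 2.63), fewer than the 3.05% (2.89 to 3.22) of full-length-only sites elsewhere, and in 0.888% of start windows. GGAATG, the core of TEAD sites, was in 15.8%, with 14.7% at shared sites and 9.68% in start windows.

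Among the SOX genes, 1 of 19 had a full-length-only promoter site, against 3.3% of all genes. That gene was SOX6, an SOXD-group transcription factor without an activation domain, and it had 4 sites, the most of any gene. The first, at chr11:16377881-16378896, had a total signal of 5627 and lay 297 bp upstream of the canonical start. The other 3, at alternative starts, had 3089, 2277 and 1656, and the one with 3089 had the AP-1 motif. None of the 4 had a SOX core in the central 200 bp, and all 4 overlapped an interval of the down-sampled list. SOX6 spans 773 kb with 10 annotated starts and held 40 full-length-only and 4 shared intervals in its body, and it also had a shared promoter site. SOX2 itself had a shared and no full-length-only promoter site.

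Another 9 genes had 3 sites, 36 had 2 and 608 had 1. The 9 were DICER1 (the RNase that makes microRNAs), DTNA (a dystrobrevin), HIPK1 (a nuclear kinase), NAV3 (a neuron navigator), PTK2 (focal adhesion kinase), RMDN1 (a microtubule regulator), SYNE1 (nesprin-1), SYT1 (a calcium sensor of synaptic vesicles) and TFDP2 (a dimer partner of E2F). DICER1 had totals of 5248, 2430 and 1428, all at alternative starts, and the site with 2430 held the longer motif. TFDP2 had 2857, 2617 and 1504, with no SOX core in any of them. Of the 9, DTNA and NAV3 had 1 of their sites at the canonical start. All 9 had between 8 and 43 annotated starts. TCF4, a basic helix-loop-helix factor of neural and other progenitors, was among the 36 with 2, at totals of 2207 and 1372.

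Pluripotency and neural progenitor genes, the programmes SOX2 is best known for, had a full-length-only promoter site at 0 of 16 and 1 of 28 genes (3.57%, CDH2). Among lists of the host cell, sites were at 0 of 24 fibroblast identity genes, 0 of 39 contractile genes, 0 of 16 AP-1 genes and 0 of 12 Hippo pathway genes. Of 44 collagen genes 3 had a site (6.82%), COL21A1, COL4A2 and COL14A1, all at alternative starts with totals from 1700 to 1852. Lists this small give few or no sites at the 3.3% of all genes, so nothing is read from these counts.

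Larger families are given with their sites at canonical starts. Over all genes the shares were 3.3% at any start and 0.834% at the canonical start. Keratin and keratin-associated protein genes had sites at 6 of 149 (4.03%), all 6 at canonical starts. Of these, 5 lay within 238 kb on chromosome 17, so they are not spread over the genome. The strongest of the 6 were KRTAP4-12, KRTAP3-1, KRTAP3-2 and KRT10, with totals of 7789, 6473, 3018 and 2895. Olfactory receptor genes had 6 of 390 (1.54%), 5 at canonical starts. Solute carriers had 13 of 340 (3.82%), 2 of them at canonical starts (SLC38A4 and SLC2A12). Zinc finger genes had 10 of 508 (1.97%), 3 at canonical starts (ZNF484, ZNF620 and ZNF705A). The interleukin and chemokine list, which also holds interleukin receptor genes such as IL31RA, had 5 of 113 (4.42%), 2 at canonical starts (IL26 and IL36RN). Serpins, a smaller list, had 3 of 34 (8.82%), SERPINB2, SERPINB6 and SERPINE3, of which only SERPINE3 had its site at the canonical start. IFNE, an epithelial interferon, MMP27, a matrix metalloproteinase, KCNJ13, a potassium channel, and PCDHGA4, a protocadherin, each had a site at the canonical start, with totals of 2983, 2302, 4678 and 4974. Their lists had sites at 1 of 26 interferons (3.85%), 1 of 42 MMP and ADAMTS proteases (2.38%) and 1 of 94 potassium channels (1.06%). Cadherins and protocadherins had 2 of 89 (2.25%), beside 3.3% of all genes. Nothing is read from these small counts. The site at KCNJ13 was also within 1 kb of a start of GIGYF2.

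Ribosomal protein genes had sites at 0 of 86, proteasome subunits at 1 of 48 (2.08%, PSMD1) and respiratory chain subunits at 2 of 91 (2.20%, NDUFA10 and NDUFB5, at alternative starts), beside 3.3% of all genes. Replication-dependent histone genes had 2 of 64 (3.12%), the pair H2AC11 and H2BC11 that share the site of highest signal, and 6 with a shared site. HOX genes, cytochromes P450, glucuronosyltransferases, taste receptors and glutamate and GABA receptors had 0 of 39, 55, 21, 27 and 45. The axon guidance list had 1 of 49, SEMA5A, at an alternative start. In all, 28 lists were described, chosen with earlier results of these data known, and no list was tested.

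The down-sampled SOX2 list, of the same sample, overlapped 458 of the 695 sites (65.9%, 62.3 to 69.3) by at least 1 bp. The share was 64.3% at full-length-only sites elsewhere and at shared promoter sites, with differences of 1.62 points (-2.01 to 5.07) and 1.56 points (-4.36 to 7.61). At the 35 CpG-rich canonical starts it was 60.0% (43.6 to 74.4), at the 102 CpG-poor ones 67.6% (58.1 to 75.9).

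The 1-kb limit cuts through a continuous distribution. Just inside it lay the sites at RPS6KA3 (1000 bp, total 1887), VPREB3 (1000 bp, 1825) and NXPE3 (998 bp, 6012), and just outside SERP2 (1001 bp, 3147), LDAH (1002 bp, 4577) and PRDM2 (1004 bp, 1350). There were 75 sites at 901 to 1000 bp and 72 full-length-only intervals at 1001 to 1100 bp.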

How the data were processed

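Peak lists of CUT&RUN libraries were used as deposited. Per the submitters' processing notes, Bowtie2 2.3.4.1, SAMtools, bedtools 2.27.1, SEACR 1.3, deepTools 3.5.0 and the hg19 build were used. Normalization, peak threshold, control and whether replicates were pooled are not given in the sources used here. The total and maximum signal per interval are the authors' deposited values, and depth is unknown. The down-sampled list holds positions without signal.

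Exact duplicate rows (1654) were counted once. An interval was placed by its centre, within 1000 bp of starts of 89204 protein-coding transcripts in GENCODE release 44 mapped to GRCh37. Canonical means tagged Ensembl canonical. CpG classes used 500-bp windows from 700 bp before to 200 bp after a start. Motifs were counted on both strands in 200 bp at the centre. Windows at starts took the sites' own offsets in turn. Shares have Wilson, differences Newcombe and densities exact Poisson 95% intervals, all for counting error over intervals only. With 1 list per protein no test was made.

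Sites named were the 10 of highest total signal, the 6 highest with the longer SOX motif and the 6 highest with the AP-1 motif. Sites at listed genes (up to 4 a list), genes with 2 or more sites and 3 sites on each side of the distance limit were also eligible. Other names, including the genes behind small counts, were chosen after their values were seen. The sites and the gene lists were chosen with earlier results of these data known. Printed sequences are from the hg19 reference, and windows in untranslated regions were left out. The placement, overlap and motif code was tested on simulated data. Tools were samtools 1.23.1, pyfaidx 0.9.0.4, pandas 2.3.3, numpy 2.4.6, scipy 1.17.1 and matplotlib 3.10.9 under python 3.11.15.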

Additional observations from a re-analysis of the deposited data

How the results depend on the processing

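No paired analysis was possible because only lists of replicate 1 were analysed, and leaving out replicates was not possible for the same reason. Of 49 recomputed values, 33 stayed within the interval of the reported share or within 1.5 times the reported count, and 16 moved. The number of sites follows the definition of a promoter: 336 within 500 bp, 1499 within 2 kb, 158 at canonical starts only and 319 among the 50% of full-length-only intervals with the highest total signal, with 327, 1325, 165 and 312 genes. In windows of 100 bp the SOX core share was 25.8% and the AP-1 share 4.46%, and the AP-1 share was 5.75% in the 50% of sites with the highest total signal. The share of CpG-rich starts was 7.48% over all sites, 22.2% at canonical starts only and 5.46% in those 50% of sites. The share upstream was 61.4% at canonical starts only, and the down-sampled share 57.6% when 50% of the interval had to be covered. The following alternatives were added after seeing the data. The full-length-only share at CpG-rich canonical starts stayed between 33.9% and 40.7% under 7 alternatives, 1 of which ranks shared intervals by a signal whose library is not known, and that at CpG-poor ones between 62.9% and 70.8%, except 58.2% for starts within 500 bp. Unknown depth limits every statement on sites absent from the SOX2-DBD list.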

Other observations

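Some sites lay in clusters of related genes within 300 kb of each other. These clusters were picked after the values were seen and were not tested. Other stretches with 3 sites within 300 kb held genes of different families, such as C5, CNTRL and RAB14, or CLIP4, TOGARAM2 and WDR43. On chromosome 11, GLYAT, GLYATL1 and GLYATL2, which encode glycine acyltransferases, had a site each over 213 kb, with totals of 2146, 1876 and 5070. A SOX core was present in each of the 3, and 12 full-length-only and 0 shared intervals lay in that stretch. The site of GLYATL1 was at an alternative start only. On chromosome 17, the lipid transporter genes ABCA8, ABCA6 and ABCA10 had a site each over 274 kb, all at canonical starts, with totals of 4220, 4833 and 7459, among 6 full-length-only and 1 shared intervals. Beyond that stretch, ABCA5 of the same family also had a site, at an alternative start, with a total of 2160. A SOX core was present at ABCA8 and not at ABCA6, ABCA10 or ABCA5. Also on chromosome 17, the 5 sites of KRT10, KRTAP2-2, KRTAP2-3, KRTAP3-1 and KRTAP3-2 lay within 238 kb, among 10 full-length-only and 6 shared intervals.

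Gene-dense chromosome 19 had 6 sites, at 0.418% of its 1436 genes, and chromosome 13 had 22, at 6.90% of its 319 genes. The full-length-only intervals of those chromosomes numbered 229 and 1514, and the sites made up 2.62% and 1.45% of them.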
